A study of Rattus norvegicus with 3 samples.

Results

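Cytosolic ribosomal protein genes were followed across the 3 major salivary glands of the rat. They were chosen by name: every non-control probe whose gene name in the array files is Rps or Rpl with a number and at most 1 further letter (a, l, x or y), or Rplp1, Rplp2, Rpsa or Fau, leaving out the S6 kinases and the mitochondrial ribosomal proteins. This gave 109 of 41012 probes and 73 of 35727 gene names, 32 for the small subunit (with Rpsa and Fau) and 41 for the large subunit. The glands were the parotid, submandibular and sublingual of male Wistar rats aged 10 weeks, for which the labels name no treatment, and Cy3-labelled material from the total RNA of each went onto 1 Agilent array. The design text speaks of 3 rats, and the sources used here do not say whether a gland's RNA came from 1 animal or was pooled. There are no replicates, so no difference was tested: each value describes 1 array, and precision is limited by having so few. In whole glands, fewer cells of a type and less RNA per cell cannot be told apart.

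A ribosome is built from ribosomal RNA and a fixed set of proteins, nearly all present as a single copy, and the acidic P proteins form a flexible stalk on the large subunit that contacts translation factors. The messages of these proteins are among the most abundant in a cell and share a 5' terminal oligopyrimidine tract, through which their translation responds to mTORC1, the growth-sensing kinase complex. Salivary acinar cells export large amounts of protein and carry dense rough endoplasmic reticulum. Rodent genomes hold many processed pseudogenes of these genes, so a probe to one gene name can also read the message of its near-identical copies.

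The start sites of 7 genes on which the results turn are shown because the tract lies there. They come from RefSeq (GRCr8), 40 bases before the annotated start and 20 from it, 5' to 3' on the transcribed strand, with the unbroken run of C or T letters from the start in capitals. Rps7, Rps24, Rps18, Rpl22 and Rps21 were among the genes that differed most between arrays, Rps27 stood highest in the sublingual gland relative to the parotid, and Rplp1 differed little.
Rps7, chr6:50999426-50999485, minus strand: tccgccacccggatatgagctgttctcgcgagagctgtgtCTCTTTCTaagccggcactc
Rps24, chr16:96477-96536, plus strand: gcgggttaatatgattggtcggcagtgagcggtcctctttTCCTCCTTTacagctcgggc
Rps18, chr20:4933705-4933764, plus strand: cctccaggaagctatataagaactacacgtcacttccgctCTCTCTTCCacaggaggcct
Rpl22, chr5:168117921-168117980, plus strand: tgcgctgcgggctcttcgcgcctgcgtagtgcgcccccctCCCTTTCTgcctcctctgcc
Rps21, chr3:187723998-187724057, plus strand: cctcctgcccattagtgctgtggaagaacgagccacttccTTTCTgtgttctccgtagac
Rps27, chr2:177964587-177964646, minus strand: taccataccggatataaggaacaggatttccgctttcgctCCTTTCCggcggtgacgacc
Rplp1, chr8:71290853-71290912, minus strand: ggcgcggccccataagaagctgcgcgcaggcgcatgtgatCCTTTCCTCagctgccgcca

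Of the 73 genes, 60 had an entry in the RefSeq table by symbol. A run of at least 5 C or T letters from the annotated start was present in 30 of these 60 and in 3.96% of 19005 protein-coding genes. The letters TTCCGG, core of the ETS family motif, searched on both strands of the 300 bases from 250 before to 50 after the start, were present in 31 of the 60 and in 18.6% of all, GGGCGG, a GC box core, in 34 and in 43.1%, and TATAAA in 5 and in 13.1%. Annotated starts can lie away from the true start, so a tract not found there says only that these letters are not at that position. In relative differences (log2, defined in the next paragraph), the genes with and without the tract had medians of 0.57 (29 genes compared) and 0.53 (30 genes) for sublingual minus submandibular-labelled, and of -0.64 and -0.52 (30 genes each) for submandibular-labelled minus parotid.

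Levels are log2 processed signals minus the array's 75th percentile. A relative difference is the difference of 2 arrays in this level minus the median difference of all 17145 genes well above background on the 3 arrays (0.05 for submandibular-labelled minus parotid, 0.06 for sublingual minus parotid and 0.01 for sublingual minus submandibular-labelled). A gene with several probes is represented by the brightest. No spot was saturated on any array, and the signals at the 75th percentile were 186, 228 and 244. The array labelled submandibular is called submandibular-labelled because of 9 probed products of the granular convoluted ducts, a structure of that gland in male rats. None was shown to be at least 2-fold above both other arrays on it. Only 6 of the 9 were well above background there. Smr3b was so there alone, with lower bounds of 1.57-fold over the parotid and 2.11-fold over the sublingual, so its true differences are not known. Well above background were all 73 genes in the parotid, 71 in the submandibular-labelled and 72 in the sublingual array, against 54.4%, 52.3% and 54.7% of all genes.

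The ribosomal protein genes were lower as a group in the submandibular-labelled array than on both others, and stood at about the same relative level on the parotid and sublingual arrays. Their summed linear level was 28027 on the parotid, 20200 in the submandibular-labelled and 30691 in the sublingual array. Of 72 genes compared on all pairs, 67 were below both other arrays in the submandibular-labelled array, as were 28.2% of all genes compared.

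**Figure D1:**
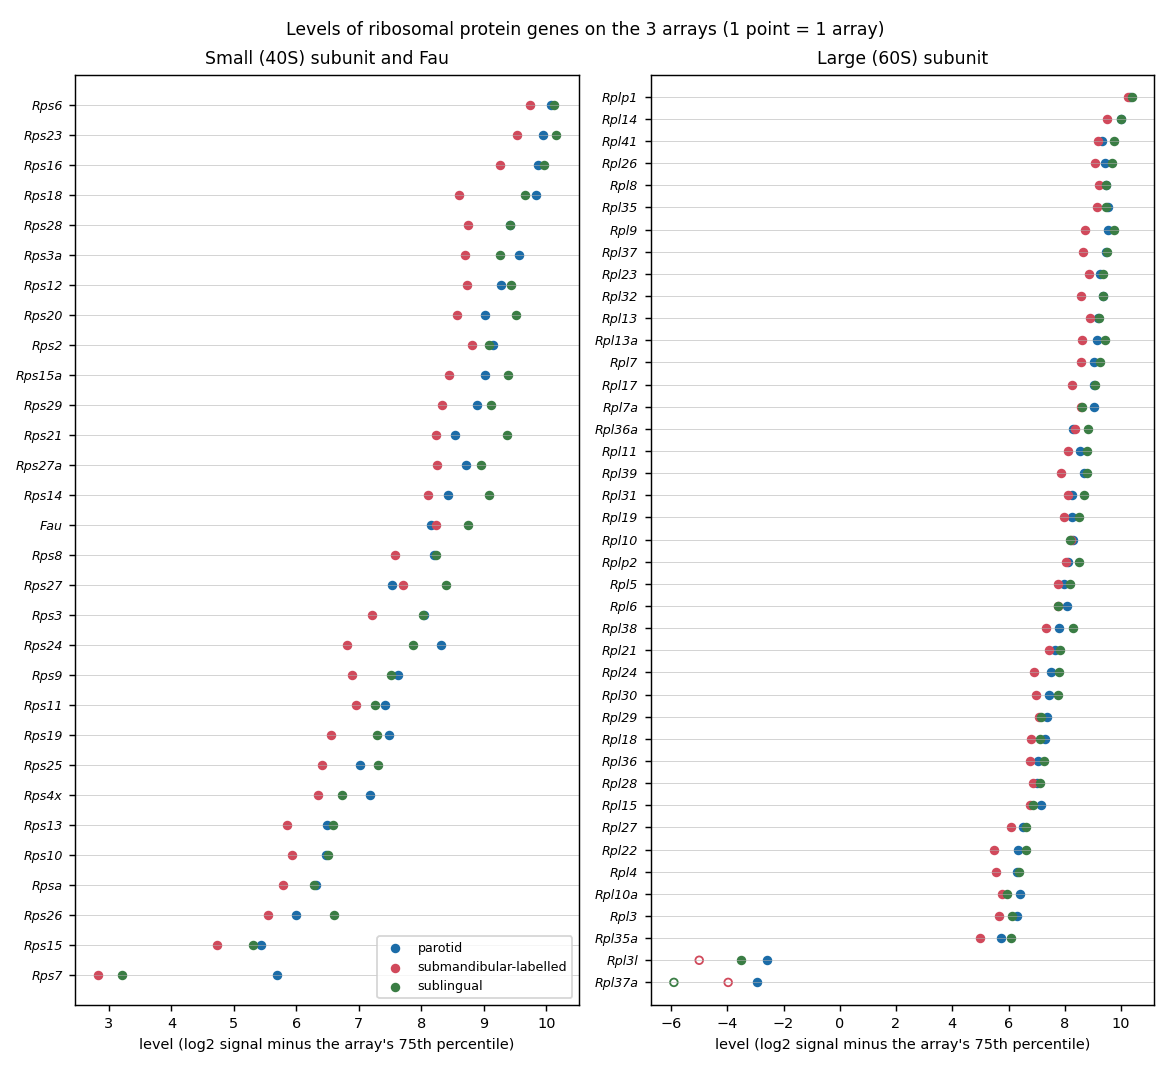
Level of 71 of the 73 genes (horizontal axis, log2 signal minus the array's 75th percentile) on the parotid, submandibular-labelled and sublingual arrays, with open circles where a probe was not well above background. Rows are ordered by mean level for display only, and the submandibular-labelled points mostly lie to the left, as for Rps24 at 6.81 beside 8.32 in the parotid and 7.87 in the sublingual.

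Against the parotid, the median relative difference in the submandibular-labelled array was -0.52 (1.44-fold lower), and 80% of the genes lay between -0.89 and -0.17. Over all 20637 genes compared, the median was -0.06. Lower were 70 of 73 genes, against 52.5% of all genes, and higher 3 (background 47.4%). The lower genes include Rpl3l and Rpl37a, whose values here are bounds set by the detection limit. At least 1.5-fold lower were 33 of 73 (background 27.5%) and at least 1.5-fold higher none (background 19.3%). At least 2-fold lower were 4 of 73 and at least 2-fold higher none, smaller shares than the backgrounds of 14.6% and 9% (23.6% in either direction). The shift was thus broad and small, and with quantile normalization its median was -0.19. The small subunit genes had a median of -0.62 (32 genes) and the large subunit genes a median of -0.47 (41 genes).

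Between the sublingual and submandibular-labelled arrays, which otherwise differed little, the same genes stood out more. The median was 0.59 (1.51-fold higher in the sublingual), beside 0.02 over all 19936 genes compared. Higher were 70 of 72 genes, Rpl3l among them by a bound (background 52%), at least 1.5-fold for 36 of 72 (background 9.43%) and at least 2-fold for 8 of 72 (background 1.68%, or 2.28% in either direction). None was at least 1.5-fold lower (background 4.58%) or 2-fold lower (background 0.602%). The medians were 0.68 for the small subunit and 0.49 for the large subunit. With quantile normalization the median was 0.36 and 2 genes were at least 2-fold apart, and after subtracting the level trend of other genes 1 was.

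Against the parotid, the sublingual array showed no common shift of these genes. The median was 0.02, beside -0.04 over 20828 genes compared, and its sign depended on the processing. Higher were 38 of 73 genes (background 48.1%). At least 1.5-fold higher were 3 (background 21.3%) and at least 1.5-fold lower 3, with Rpl37a by a bound (background 27.7%), and 1 gene was at least 2-fold apart (background 24.4%), which was lower (background 14.2%, with 10.2% for higher). Each pair of comparisons shares an array, so the 3 medians are not independent of each other.

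**Figure D2:**
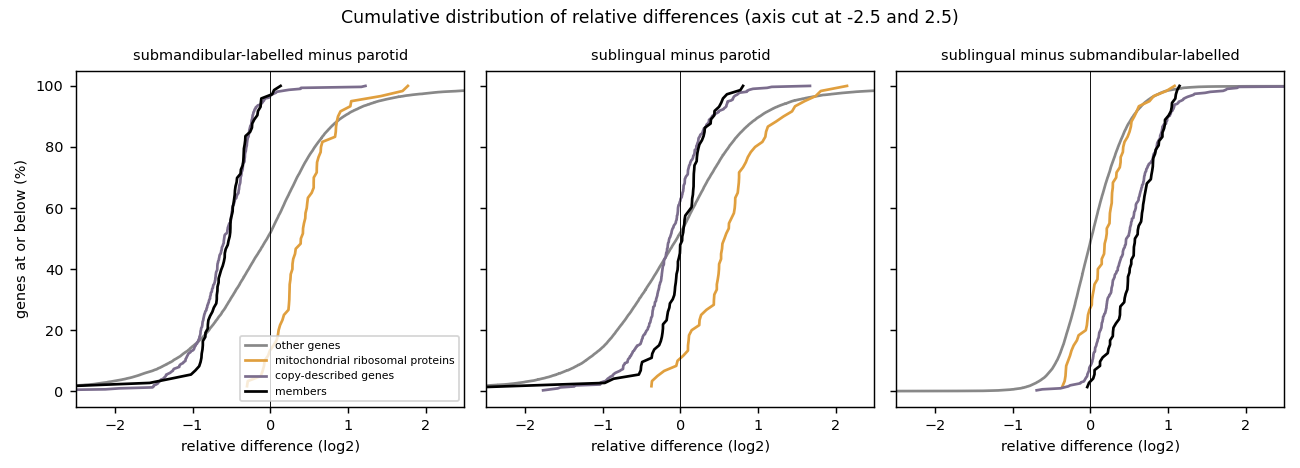
Cumulative share of genes (vertical axis, percent) at or below each relative difference (horizontal axis, log2) for each pair of arrays, for the ribosomal protein genes, genes described as their copies, mitochondrial ribosomal proteins and other genes. The member curve lies left of the other genes for submandibular-labelled minus parotid (median -0.52) and right of them for sublingual minus submandibular-labelled (median 0.59).

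The error that can be given is that of spots and probes, and covers neither animals nor labelling. The Rplp1 probe was spotted 10 times per array, with SDs of 0.08, 0.10 and 0.13 on the log2 scale in the parotid, submandibular-labelled and sublingual arrays. For 26 genes with several probes well above background on all arrays (61 probes), relative differences of probes of 1 gene had a pooled SD of 0.10 for submandibular-labelled minus parotid, 0.14 for sublingual minus parotid and 0.15 for sublingual minus submandibular-labelled. Between those genes the SDs were 0.24, 0.26 and 0.32. Differences between genes were therefore larger than differences between probes of a gene. No gene's probes disagreed by 2-fold, and the widest gap was that of Rpl37 between sublingual and submandibular-labelled, 0.88. All 4 probes named Rps2 lay between -0.46 and -0.38 for submandibular-labelled minus parotid, and all 5 named Rpl21 between -0.32 and -0.23. Some of these probes overlap in genome position, so they are not fully separate readings. The 2 probes named Rps25, given the same position, had 0.88 and 0.45 for sublingual minus submandibular-labelled.

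Ribosomal protein probes are bright, and bright genes of other kinds were lower in the submandibular-labelled array than on the parotid array too. Among genes that are neither ribosomal proteins nor described as their copies, the median for submandibular-labelled minus parotid was 0.24 at mean levels of 6 to 7 (241 genes), -0.02 at 7 to 8 (97 genes), -0.40 at 8 to 9 (52 genes) and -0.34 at 9 to 11 (21 genes). The ribosomal protein genes in the same ranges had medians of -0.65 (13 genes), -0.51 (16), -0.47 (17) and -0.51 (22). Over levels of 6 to 11 as a whole the other genes had a median of 0.10 (411 genes) and the ribosomal protein genes of -0.51 (68 genes), and the gap was smallest above 8. After subtracting the level trend of other genes, a setting chosen after seeing the data, the median of the 73 genes was -0.58 and 9 were at least 2-fold apart. That median does not describe the gap above 8. There the other genes had medians of -0.40 and -0.34, close to the -0.47 and -0.51 of the ribosomal protein genes. Between the sublingual and submandibular-labelled arrays the other genes in the 4 ranges had medians of 0.14, 0.05, -0.06 and -0.03, and the ribosomal protein genes 0.53, 0.55, 0.66 and 0.62.

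**Figure D3:**
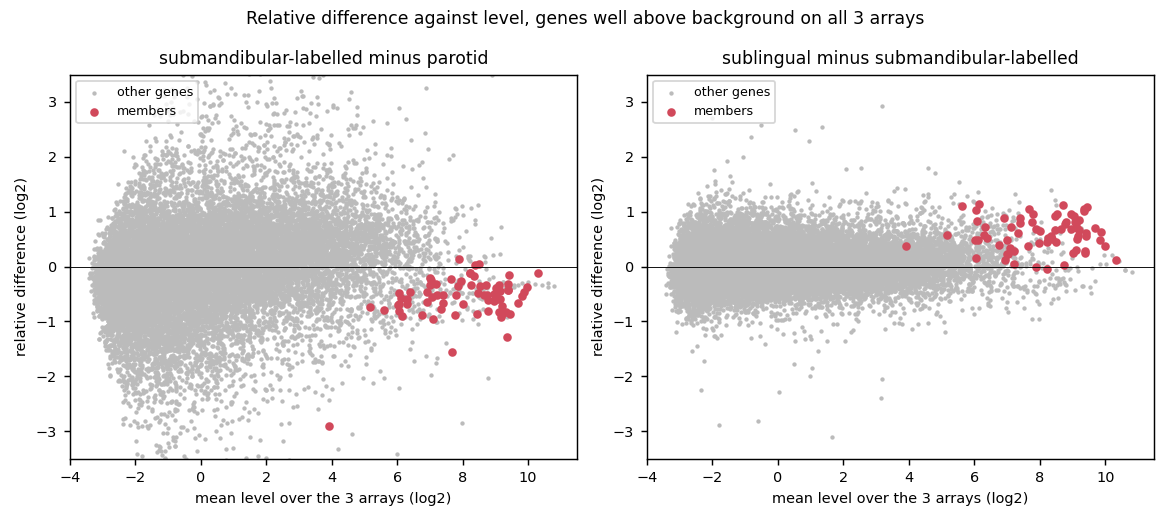
Relative difference (vertical axis, log2) against mean level over the 3 arrays (horizontal axis, log2) for genes well above background on all 3 arrays, with ribosomal protein genes in red and other genes, without described copies, in grey; the vertical axis leaves out points beyond its limits. For sublingual minus submandibular-labelled, the 22 ribosomal protein genes at levels of 9 to 11 have a median of 0.62 and the 21 other genes of -0.03.

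Within the small subunit, Rps7, Rps24 and Rps18 were furthest below the parotid in the submandibular-labelled array. Rps7 and Rps24 are among the small subunit genes mutated in Diamond-Blackfan anaemia, a failure of red cell production. Rps7 lay at 5.69 in the parotid, 2.83 in the submandibular-labelled and 3.20 in the sublingual array. On its probe it was 7.50-fold and 5.82-fold lower than in the parotid, and no other of the 73 genes was at least 2-fold below the parotid on both arrays. Probes described as the same protein differed less, as given below. Rps24 lay at 8.32, 6.81 and 7.87, high in the parotid and sublingual and low in the submandibular-labelled array. It was 2.94-fold below the parotid there and 1.42-fold below it in the sublingual. Rps18, a protein of the subunit's head, lay at 9.84, 8.60 and 9.66, 2.44-fold below the parotid in the submandibular-labelled and 1.18-fold in the sublingual array. Rps19 (7.48, 6.56 and 7.28) and Rps3a (9.57, 8.70 and 9.26) followed, with relative differences of -0.96 and -0.92 in the submandibular-labelled array.

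A second group of small subunit genes stood above the parotid in the sublingual gland. Rps27, a zinc finger protein, lay at 7.53, 7.71 and 8.40, the sublingual array being the high one, 1.75-fold above the parotid. Rps21 lay at 8.53, 8.24 and 9.37, 1.71-fold above the parotid in the sublingual and 2.17-fold above the submandibular-labelled array. Rps14 lay at 8.42, 8.11 and 9.08 (1.52-fold above the parotid in the sublingual) and Rps26, which lines the exit of the messenger channel, at 5.99, 5.55 and 6.60 (1.46-fold). In these 3 the submandibular-labelled array was the lowest, and in Rps27 the parotid was. Fau, made as a fusion of a ubiquitin-like protein with a small subunit protein, lay at 8.16, 8.24 and 8.75, 1.44-fold above the parotid in the sublingual. Rps4x, encoded on the X chromosome, went the other way from Rps27, at 7.18, 6.34 and 6.74, 1.42-fold below the parotid in the sublingual. Rpsa, also known as a laminin receptor, lay at 6.31, 5.79 and 6.28 and followed the median of the group. Rps6, the substrate of the S6 kinases, lay at 10.07, 9.74 and 10.13, with a relative difference of -0.38 in the submandibular-labelled array, and Rps16 (9.87, 9.25 and 9.97) and Rps23 (9.94, 9.53 and 10.15) were of the same form.

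In the large subunit, Rpl22, Rpl35a and Rpl9 were the furthest apart between the sublingual and submandibular-labelled arrays. Rpl22, an RNA-binding protein dispensable for ribosome function in many cells, lay at 6.33 in the parotid, 5.48 in the submandibular-labelled and 6.64 in the sublingual array, a 2.22-fold gap between the last 2. Rpl35a lay at 5.74, 4.99 and 6.10 (2.15-fold) and Rpl9 at 9.52, 8.74 and 9.75 (2.01-fold). For each of these the submandibular-labelled array alone was low. Rpl36a, at 8.28, 8.38 and 8.84, was the large subunit gene furthest above the parotid in the sublingual gland (1.41-fold), and its level was not reduced in the submandibular-labelled array.

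A set of large subunit genes did not take part in the difference between the sublingual and submandibular-labelled arrays. Rpl10, which joins the subunit late in its assembly, lay at 8.29, 8.22 and 8.19, and its relative difference was -0.04. Rpl6 (8.08, 7.78 and 7.77) and Rpl7a (9.06, 8.58 and 8.62) were lower than the parotid on both arrays by like amounts, with relative differences of -0.02 and 0.04 between these arrays. Rpl29 (7.36, 7.09 and 7.15) and Rpl15 (7.15, 6.75 and 6.88) were of the same form, at 0.05 and 0.12. Rpl10a lay at 6.42, 5.78 and 5.94, 1.61-fold and 1.45-fold below the parotid. Rpl14, at 9.99, 9.50 and 9.99, followed the group. Of the stalk proteins, Rplp1 lay at 10.32, 10.24 and 10.38, with relative differences of -0.13, -0.01 and 0.12 in the 3 pairs, and Rplp2 lay at 8.13, 8.06 and 8.51, 1.24-fold above the parotid in the sublingual.

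Probes of 2 large subunit genes were near the detection limit. Rpl3l, a paralog of Rpl3 that is known from striated muscle, lay at -2.60 in the parotid and -3.52 in the sublingual and was not well above background in the submandibular-labelled array, at least 2.03-fold below the parotid. Rpl3, which reaches toward the peptidyl transferase centre, lay at 6.30, 5.66 and 6.14. Rpl37a was well above background only in the parotid, at -2.94.

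**Figure D4:**
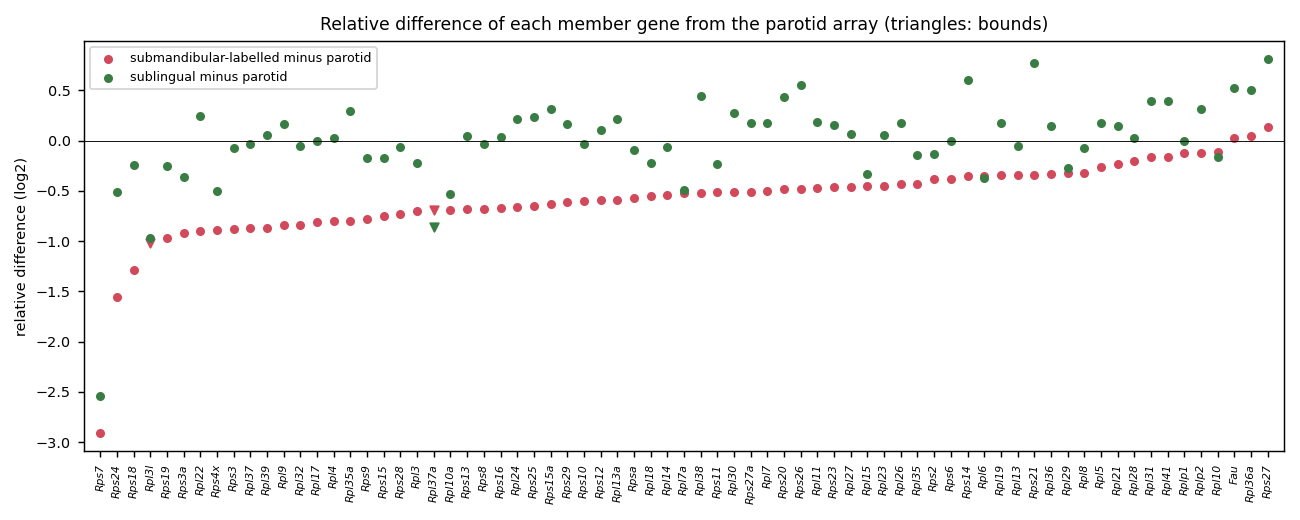
Relative difference from the parotid array (vertical axis, log2) of 71 of the 73 genes in the submandibular-labelled (red) and sublingual (green) arrays, ordered by the former, with triangles for bounds. Red points run from -2.91 (Rps7) to 0.13 (Rps27) and green points from -2.54 (Rps7) to 0.81 (Rps27).

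The array also carries 378 usable probes outside the name rule whose descriptions name a cytosolic ribosomal protein, many as predicted genes similar to one. These probes were not used to choose the genes and may read the same messages. Of 313 well above background on all arrays, 303 fell below the parotid in the submandibular-labelled array (median -0.58) and 289 higher on the sublingual than in the submandibular-labelled array (median 0.46). Against the parotid, 193 were lower and 120 higher in the sublingual (median -0.12). The group's shift was therefore seen again on separate probes of the same RNA.

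Differences between genes recurred in the copies. Across 48 proteins with at least 2 such probes (272 probes), the named gene's relative difference and the median of its copies had r = 0.84 (rho = 0.82) for sublingual minus submandibular-labelled, r = 0.64 (rho = 0.73) for submandibular-labelled minus parotid and r = 0.64 (rho = 0.80) for sublingual minus parotid. These are descriptions across proteins that share the same 3 arrays and may share messages. All 6 probes described as S24 lay between -1.50 and -1.09 for submandibular-labelled minus parotid, beside -1.55 for Rps24. The 2 described as L22 had 1.89 and 1.74 for sublingual minus submandibular-labelled, beside 1.15 for Rpl22. Of the probes well above background on all arrays, the 25 described as L7a had a median of 0.16 and the 28 described as L29 a median of 0.03 for the same pair, so these proteins were again those with little difference.

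In Rps7 the copies were smaller in difference than the named probe. The 5 probes described as S7 and well above background everywhere lay between -1.43 and -1.15 for submandibular-labelled minus parotid and between -1.03 and -0.65 for sublingual minus parotid, beside -2.91 and -2.54 for the Rps7 probe. Among them, the probe LOC497813 lay at 7.51, 6.13 and 6.58, with the arrays in the same order as on the Rps7 probe. In the rn4 coordinates of the files the Rps7 probe matched chr5:169076643-169076699 and the LOC497813 probe chr6:46515209-46515268. The RefSeq start of Rps7 shown above lies on chr6, not on the chromosome given for the Rps7 probe. Whether that probe reads Rps7 itself or a copy was not tested. The direction was shared, and the size depends on the probe. Rpl36a also differed from the median of its copies, -0.80 over 5 probes for submandibular-labelled minus parotid beside 0.05. Those probes ranged from -0.88 to 0.24, a range that includes the value of the named probe. The accession of its probe is now named Rpl36al1 in RefSeq, as that of the Rpl37 probe is now Rpl37l1. The 2 copies of Rpl37a, well above background on all arrays, had medians of -0.46 and 0.66 for submandibular-labelled minus parotid and sublingual minus submandibular-labelled.

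**Figure D5:**
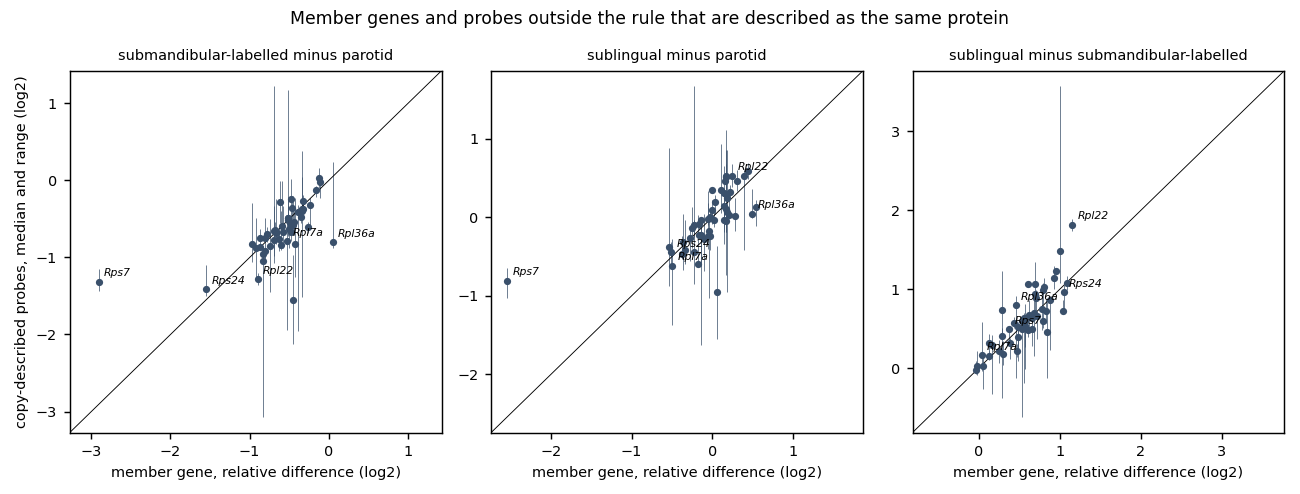
Relative difference of each named gene (horizontal axis, log2) against the median of the probes described as the same protein (vertical axis, log2, with bars from lowest to highest probe) for 48 proteins with at least 2 such probes, with the line of equality. Rps24 lies near the line and Rps7 far from it, with -2.91 on its own probe and -1.31 as the copies' median for submandibular-labelled minus parotid.

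Among other genes of translation, a list of elongation factors and related genes moved in the direction of the ribosomal protein genes by smaller median amounts. The mitochondrial ribosomal proteins did not. Mitochondrial ribosomal protein genes, which serve the separate ribosome of mitochondria, had medians of 0.41, 0.58 and 0.21 for submandibular-labelled minus parotid, sublingual minus parotid and sublingual minus submandibular-labelled (60 genes), and 6 of 60 were below both other arrays in the submandibular-labelled array, beside 67 of 72. The list of elongation factors and related genes had 7 compared, with Tpt1 and Eef1e1 among them. Of these, 6 were below the parotid in the submandibular-labelled array (background 52.5%). In the sublingual, 6 were higher than in the submandibular-labelled array (background 52%). The medians were -0.22, -0.06 and 0.30. None was at least 2-fold apart in any pair (backgrounds 23.6%, 24.4% and 2.28%). Eef1a1, which brings aminoacyl-tRNA to the ribosome, lay at 7.40, 6.56 and 6.91, and Eef1b2, its exchange factor, at 6.68, 6.19 and 7.16, both lowest in the submandibular-labelled array. Tpt1, whose message also carries the pyrimidine tract, lay at 10.31, 10.05 and 10.25.

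The counts in the other lists are few and are read beside the share of all genes at least 2-fold above the parotid (9% in the submandibular-labelled and 10.2% in the sublingual array) or below it (14.6% and 14.2%). Of 25 initiation factor genes, 2 were at least 2-fold higher than the parotid on each array and none lower (medians 0.19 and 0.22, and -0.06 between the other arrays). Eif6, which keeps free large subunits from joining small ones, was 3.13-fold and 2.98-fold above the parotid. Eif2b1 was 2.04-fold above it in the submandibular-labelled array and Eif4a2, a helicase subunit, 2.25-fold in the sublingual. Of 29 ribosome assembly factors, 1 was at least 2-fold lower on each array, Nop56 of the methylation complex (2.14-fold and 2.33-fold), and 1 at least 2-fold higher in the sublingual, Pno1 (2.05-fold); the medians were 0.08, 0.22 and -0.05. Of 9 genes of RNA polymerase I and its regulators, Myc was 14.3-fold and 13.4-fold below the parotid and Polr1c was at least 2-fold above it in the sublingual, with medians of -0.04, -0.36 and 0.10. The 12 mTORC1 and S6 kinase genes compared had medians of 0.20, 0.02 and -0.09. Among them, Eif4ebp1, an inhibitor of the cap-binding factor Eif4e, was 2.16-fold and 2.23-fold above the parotid, and Rps6ka1 2.42-fold and 2.42-fold. Rps6kb1, the S6 kinase itself, was 2.06-fold below the parotid in the submandibular-labelled array.

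Marker lists of other cell types moved with the glands as well, and their part in these results was not tested. The parotid exceeded the submandibular-labelled array by at least 2-fold in 9 of 13 dividing cell markers and the sublingual in 7 (backgrounds 14.6% and 14.2%), with summed linear levels of 10.8, 7.33 and 7.67 over 14 genes. Immune cell markers summed to 109, 65.4 and 65.7 (16 genes, 9 to 11 of them well above background). The largest part of the parotid sum came from Cd74, at 5.70, 4.29 and 3.93. Among 11 compared with the parotid, Aif1 went the other way on both arrays, at 3.46, 3.62 and 3.99. Tyrobp, at 3.35, 3.26 and 3.58, did so for the sublingual alone. Higher than the parotid were thus 1 and 2 of the 11 (backgrounds 47.4% and 48.1%). Antibody-secreting cell markers summed to 45.6, 36.1 and 32.9 (6 genes, 4 well above background), a sum carried mostly by Sdc1, at 4.97, 5.05 and 4.82. The other 3 detected markers were lowest in the submandibular-labelled array. They were also at least 2-fold below the parotid in the sublingual (background 14.2%). Igj, the joining chain of secreted antibodies, lay at 3.32, 1.13 and 1.54, Mzb1 at 0.15, -1.88 and -1.29 and Tnfrsf17 at 1.66, -0.90 and 0.43. Serous acinar markers summed to 8510, 185 and 113 (10 genes) and mucous acinar markers to 22.5, 1328 and 1327 (7 genes), the lists that moved most. The mucous sum in the parotid was mostly Muc10, which went against the rest of its list at 4.47, -1.03 and -3.31. Skeletal and heart muscle markers summed to 23.2, 42.1 and 37.7 (10 genes, 5 well above background on each array). The sum was carried mostly by the probe named Tnnt2, at 4.28, 5.18 and 5.05. The list did not move as a whole, since 3 of 6 compared were higher than the parotid on each array (backgrounds 47.4% and 48.1%). Tnni2, at 0.20, -0.15 and -0.21, and Mb, at 0.93, 0.71 and 0.44, were lower on both, as was Actn2 by a bound. Endothelial cell markers summed to 19.9, 11.1 and 12.7 (9 genes, with 8, 5 and 5 well above background), mostly from Kdr, at 4.07, 3.16 and 3.46. Of 8 compared with the parotid, 1 was higher on each array, Vwf, at -1.60, -1.09 and -1.44 (backgrounds 47.4% and 48.1%). Myoepithelial cell markers summed to 18.3, 56.2 and 40.8 (6 genes). Adipocyte markers summed to 10.5, 4.20 and 5.83 (8 genes), lowest in the submandibular-labelled array, where 3 were well above background. Most of that sum came from Cfd, at 2.86, 1.75 and 2.24.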

How the data were processed

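The array files hold deposited intensity values per spot (processed signal, its error, mean signal, local background) and flags of 0 or 1, made with Agilent Feature Extraction 10.1.1.1, protocol GE1-v5_10_Apr08, array design 014879 and build rn4, per the file headers. The deposited value table gives each spot a linear ratio; set against the scanner values of spots with signals above 1000, it equals the processed signal divided by 190, 236 and 250 on the 3 arrays, with medians of 0.152, 0.122 and 0.128. The authors' own steps for it are not given in sources used here.

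Outlier-flagged spots (68, 79 and 73) were dropped, and repeat spots of a probe were averaged as log2 values. Gene names are those of the files without their _predicted or _mapped suffix; 63 of 73 member probes matched a RefSeq transcript of GRCr8 by accession, 61 of them under the same symbol. A gene was compared where it was well above background on both arrays. Where 1 side was not, its level was set at the higher of its own value and the lowest level well above background there (-3.43, -3.58 and -3.74), which gives a lower bound. Named genes were those at least 2-fold apart, the 6 highest and 6 lowest per pair, paralog pairs, the stalk genes with Rpsa and Fau, the 5 with the brightest probes, and list members at least 2-fold apart; others were chosen as examples. Values of 2 member genes are not reported singly here; they remain in the counts and medians. Of the paralog pairs in that rule, Rpl3 with Rpl3l was matched. The members, lists and this rule were chosen with earlier results of these data known, and copy-described probes were added after seeing the values. The steps were tested on simulated data. Tools were Python 3.11.15, numpy 2.4.6, pandas 2.3.3, scipy 1.17.1, matplotlib 3.10.9 and limma 3.58.1 in R 4.3.3.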

Additional observations from a re-analysis of the deposited data

How the results depend on the processing

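The median relative difference kept its direction under all 13 alternatives in the pair submandibular-labelled minus parotid (-0.58 to -0.16) and in the pair sublingual minus submandibular-labelled (0.36 to 0.62), while in sublingual minus parotid it ran from -0.15 to 0.33, through 0. Some alternatives could hardly move it. Centring each array on its median before subtracting the all-gene median gave -0.52 for the first pair, as did the deposited value table. Quantile normalization gave -0.19 and 0.36 for the first 2 pairs, with 2 and 2 genes at least 2-fold apart (4 and 8 in the main analysis). Normexp background correction gave -0.40 and 0.18 for the submandibular-labelled and sublingual arrays against the parotid. Chosen after seeing the data, centring on the array median without subtracting the all-gene median gave -0.16 and 0.33 for the comparisons with the parotid, with 2, 3 and 4 genes 2-fold apart in the 3 pairs. Subtracting the level trend of other genes, also chosen after seeing the data, gave -0.15 for sublingual minus parotid, and 9 genes 2-fold apart in the submandibular-labelled array against the parotid but 1 in sublingual minus submandibular-labelled. A 1.5-fold threshold gave 33, 6 and 36 genes; a 4-fold threshold gave 1 in submandibular-labelled minus parotid and 0 in sublingual minus submandibular-labelled. Without a low-signal filter, or with the median of a gene's probes, 2 genes were 2-fold apart for sublingual minus parotid (1 in the main analysis), and counting probes gave 13 for sublingual minus submandibular-labelled. The cause was not tested. No paired analysis was possible because each gland has 1 array. Leaving out an array leaves no comparison of its gland. Probes near background, those of Rpl3l and Rpl37a, have bounds only on some arrays.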

Other observations

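Among the probes described as ribosomal protein copies, a few departed far from the protein they are named for. They were chosen after their values were seen. A predicted gene described as L9 (RGD1562204_predicted) lay at 6.41 in the parotid, 3.38 in the submandibular-labelled and 6.96 in the sublingual array, a relative difference of 3.57 between the last 2, where Rpl9 itself had 1.01. Another described as L9 (LOC287551) lay at 6.24, 5.24 and 7.16. A predicted gene described as L27 (RGD1560069_predicted) lay at 5.44, 3.37 and 3.96, with -2.13 for submandibular-labelled minus parotid, where Rpl27 had -0.46. In the opposite direction, a predicted gene described as L10a (RGD1565459_predicted) lay at 3.18, 4.46 and 4.13, at 1.23 above the parotid in the submandibular-labelled array, where Rpl10a had -0.69.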
